A study of Sus scrofa with 8 samples.

Results

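Rod bipolar nuclei of the pig retina were examined for their response to an intravitreal AAV vector. A nucleus was counted as a rod bipolar nucleus if its barcode held at least 1000 unique molecular identifiers (UMIs, each counting 1 captured transcript), at least 1 UMI of TRPM1 and GRM6 together, at least 1 UMI of PRKCA, at least 4 UMIs of PRKCA, CA8 and PRKCQ together, and no more than 1 UMI over GAD1, GAD2, SLC6A9, PTPRC and PDE6C. By this rule 17456 of 388491 barcodes in 8 retinas were members. Members were thus chosen by measured UMIs of these genes. The 5 that admitted them (PRKCA, CA8, PRKCQ, TRPM1 and GRM6) and the 5 that kept other nuclei out were fitted with all other genes. They can count in the totals, but no test of them is reported. Values of the former are given below as a description only.

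The rod bipolar cell is the second-order neuron of night vision. It collects input from many rods and passes it on through AII amacrine cells. In darkness, glutamate from the rods holds its receptor mGluR6 (GRM6) active, and the G protein Go then keeps the cation channel TRPM1 closed. Light lowers glutamate, the channel opens and the cell depolarizes, which is why it is called an ON bipolar cell. Protein kinase C alpha (PRKCA) is its classic marker. A cell that detects viral nucleic acid releases interferon, and the receptors for interferon act through JAK kinases and transcription factors to switch on interferon-stimulated genes.

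The animals were female Yucatan minipigs, 3 to 5 months old and chosen for the absence of neutralizing antibodies. Every animal, controls included, received hyaluronidase (Vitrase) in the vitreous beforehand and methylprednisolone at 5 mg/kg, first before dosing and then weekly. Eyes were injected with AAV2.7m8 carrying GFP under the CAG promoter, which is active in most cell types, at 5e11 vector genomes per eye, or with vehicle buffer. Nuclei were isolated from frozen tissue, so the RNA measured is nuclear. At week 2 there was 1 AAV animal (7221) and 1 vehicle animal (7222), with the left and the right retina of each. At week 4 there were left retinas of 2 AAV animals (7248 and 7249) and of 2 vehicle animals (7250 and 7251). Values below are given in this order. The paper's week 4 joins animals killed prematurely, because inflammation was detected, with others killed later. For the week 4 animals here the day of death and the uveitis score were not known. Each of the 4 groups also carries a batch name of its own in the labels, so that batch cannot be told apart from treatment and week. With 1 animal per arm, the AAV effect at week 2 was not tested on its own, and eyes of 1 animal are not independent.

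The retinas held 121544835 to 173614051 UMIs in 40389 to 55012 barcodes. Rod bipolar nuclei had a median of 2619 to 4707 UMIs, highest in the right AAV retina at week 2, and 5625318 to 11427376 UMIs were summed per retina. The vehicle retinas at week 4, with medians of 2802 and 2619, were the shallowest. No 2 of the 32 lanes shared more than 0.514% of their barcode sequences. Rod transcripts, from a list of 17 genes, made up 2206 to 4844 CPM (UMIs scaled so that every sum has the same total) of the members' sums, lowest in the right AAV retina at week 2. The same list stood at 7286 to 11695 CPM in all other barcodes, here and below those with at least 1000 UMIs that were not members. This set mixes cell types, and the part of its composition in its changes was not tested. A list of 14 microglia and macrophage genes stood at 50.7 to 53.9 CPM in the AAV retinas at week 4 and 29.9 to 30.7 CPM in the vehicle retinas, and 19 lymphocyte genes at 90.0 to 102.3 CPM and 41.1 to 43.6 CPM. CD2, CD3D, CD79B, GZMB, MS4A1 and NKG7 were at 0 in both week 4 vehicle retinas and none of the 19 was at 0 in the AAV retinas. The part of RNA from these cells in the results below was not tested.

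Apart from the genes of the rule, the members carried a clear set of their own. Rod bipolar nuclei were set beside other ON bipolar nuclei, which had at least 3 UMIs of TRPM1 and GRM6 and at most 1 of PRKCA, CA8 and PRKCQ (20317 nuclei). LRRTM4, which encodes a postsynaptic adhesion protein, led the members' transcripts: its level was 15758 and 15874 CPM in the week 2 vehicle retinas and 17334 and 17791 CPM in the week 4 vehicle retinas, against 189 to 303 CPM in other ON bipolar nuclei of the same retinas. The ratio of the means over these vehicle retinas was 63.6. CADPS2, a regulator of vesicle release, stood at 785 to 1294 CPM against 39.9 to 88.6 CPM. The calcium sensor VSNL1 was 16.03-fold higher and C16orf74 23.3-fold higher, and MAT1A, DYDC1, GINS2, IL1RAP, FRMPD3 and TMEM196 completed the 10 genes with the largest ratios. In the other direction, OPN5, RELN, NWD2 and SKOR2 were 20.0, 12.2, 16.5 and 21.6 times higher in other ON bipolar nuclei. These ratios describe how the rule sorted the nuclei and were not tested.

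The edge of the rule was less clean. Members with exactly 4 UMIs of PRKCA, CA8 and PRKCQ held 641 to 5149 CPM of LRRTM4 per retina and 5806 to 10895 CPM of the rod list. Nuclei just outside, with 3 UMIs, held 528 to 1517 CPM of LRRTM4 and 5802 to 10794 CPM of the rod list. Nuclei just inside were 12.1% and 10.9% of the members in the AAV retinas at week 4 and 4.93% to 7.18% elsewhere. Some results are therefore also given for members with at least 10 marker UMIs, an alternative added after these values were seen. Of 151 week 4 calls of named genes that could be tested in it, 28 were lost. The test between rod bipolar and other ON bipolar nuclei was not run in this alternative. The part of nuclei at the edge in results given without it was not tested.

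The numbers of rod bipolar nuclei were lowest in the AAV retinas of week 4. In the AAV animal of week 2 they were 2242 and 2357, which was 5.94% and 5.65% of barcodes with at least 1000 UMIs. The vehicle animal gave 2523 and 2548 nuclei (4.90% and 5.33%). The week 4 AAV retinas held 1269 and 1645 (2.55% and 3.39%), against 2521 and 2351 (5.602% and 5.57%) in the vehicle retinas. Both week 4 AAV retinas lay below every other retina. The mean share was 2.97% ± 0.590 against 5.59% ± 0.0189 (SD, n = 2 each), with p = 0.333 in an exact two-sided permutation test, the smallest p that 2 against 2 allows. With at least 10 marker UMIs the shares were 1.68% and 2.33% against 4.21% and 4.202%. Other ON bipolar nuclei also took a smaller share (4.55% and 4.28% against 5.84% and 7.02%), so that there were 0.561 and 0.791 rod bipolar nuclei for each of them in the AAV retinas and 0.959 and 0.795 in the vehicle retinas. The higher AAV value and the lower vehicle value were nearly equal, and the groups did not overlap. The AAV retinas at week 4 also held 419 and 437 T nuclei, against 0 in the vehicle retinas, and a share moves with what else is counted.

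The rule leans on PRKCA, and PRKCA itself differed. Among members its level was 6754 and 7481 CPM in the week 2 AAV retinas, 6102 and 6399 in the vehicle retinas, 4041 and 3894 in the week 4 AAV retinas and 5241 and 5868 in the vehicle retinas. TRPM1 stood at 5195 and 5331 CPM in the week 4 AAV retinas against 6428 and 5918, CA8 at 321 and 347 against 385 and 386, PRKCQ at 147 and 149 against 159 and 173, and GRM6 at 229 and 176 against 187 and 162. Fewer rod bipolar nuclei and less PRKCA per nucleus cannot be told apart by this rule.

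**Figure D1:**
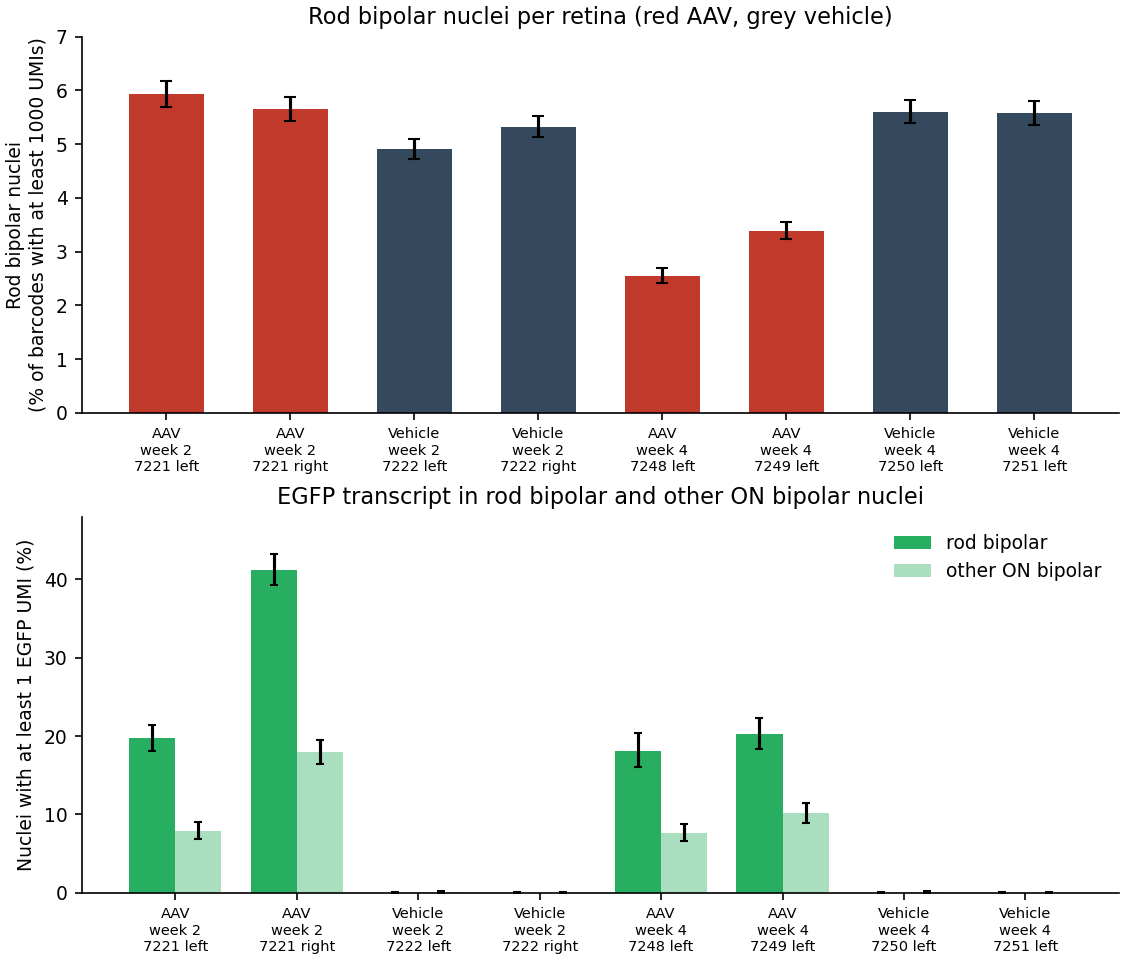
Top, rod bipolar nuclei as a percentage of barcodes with at least 1000 UMIs in each retina. Bottom, percentage of rod bipolar (dark green) and other ON bipolar nuclei (light green) with at least 1 EGFP UMI. Bars are single retinas and error bars exact 95% binomial intervals, which cover counting error only. The 2 AAV retinas of week 4 have the lowest shares of rod bipolar nuclei (2.55% and 3.39%), and in the AAV retinas EGFP is found more often in rod bipolar than in other ON bipolar nuclei.

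The vector's transcript was detected in a minority of the members. Detection rose with depth: with 1000 UMIs drawn from each nucleus the share at week 4 was 6.38%, and with 2000 it was 11.7%. Nuclei without an EGFP UMI are therefore not shown to lack the transcript. EGFP was found in 19.8% and 41.2% of rod bipolar nuclei of the week 2 AAV animal and in 18.1% and 20.3% at week 4. It was found in 0 of the nuclei of each vehicle retina, which allows a share of nuclei with an EGFP UMI of up to 0.118% to 0.128% (a floor of 3 counts). Other ON bipolar nuclei of the vehicle retinas held EGFP in 1 nucleus each of 7222 left (0.0368%) and 7250 (0.0380%) and in 0 of the others. Other ON bipolar nuclei stood at 7.89%, 18.0%, 7.64% and 10.1%, below the members in each of the 4 AAV retinas. T nuclei, used for comparison on the untested assumption that they lack the transcript of the vector, held EGFP in 5.01% and 5.26% at week 4. Median depth was 3847 and 4429 UMIs in the week 4 members, 3040 and 3400 in other ON bipolar nuclei and 2709 and 2616 in T nuclei. After each nucleus had been thinned to 2000 UMIs the shares at week 4 were 11.7% ± 0.303 in rod bipolar, 5.81% ± 1.12 in other ON bipolar and 3.60% ± 0.519 in T nuclei (SD, n = 2). Most positive members had 1 EGFP UMI, since 6.78%, 19.7%, 6.70% and 6.44% of members had at least 2.

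At week 4, 640 of 16691 genes tested passed the threshold of an adjusted p of 0.05 (edgeR's quasi-likelihood test on counts summed per retina, Benjamini-Hochberg adjustment), which is 3.83%. Of these, 415 (2.49%) were higher and 225 (1.35%) lower in the AAV retinas, and the median log2 change over all genes was 0.00. The count depended on the vehicle retinas: it was 107 without animal 7250, 38 without 7251, 1520 without AAV animal 7248 and 1116 without 7249. A fit without 1 retina leaves 1 in that group and takes its spread from the other group alone. A call lost in such a fit, here or below, need not mean a smaller change. Whether calls of single genes below rest on both vehicle retinas therefore cannot be decided by these fits. Those of MX2, ISG15, EIF2AK2, B2M, TAP1, NLRC5, RGR, MYOM1 and PDE10A passed without either. With at least 10 marker UMIs, 280 genes were higher and 246 lower. In sums over nuclei, fewer nuclei with a transcript and less of it in each cannot be told apart. Fold changes below are log2 with their standard errors, and p-values are adjusted by edgeR unless stated otherwise.

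**Figure D2:**
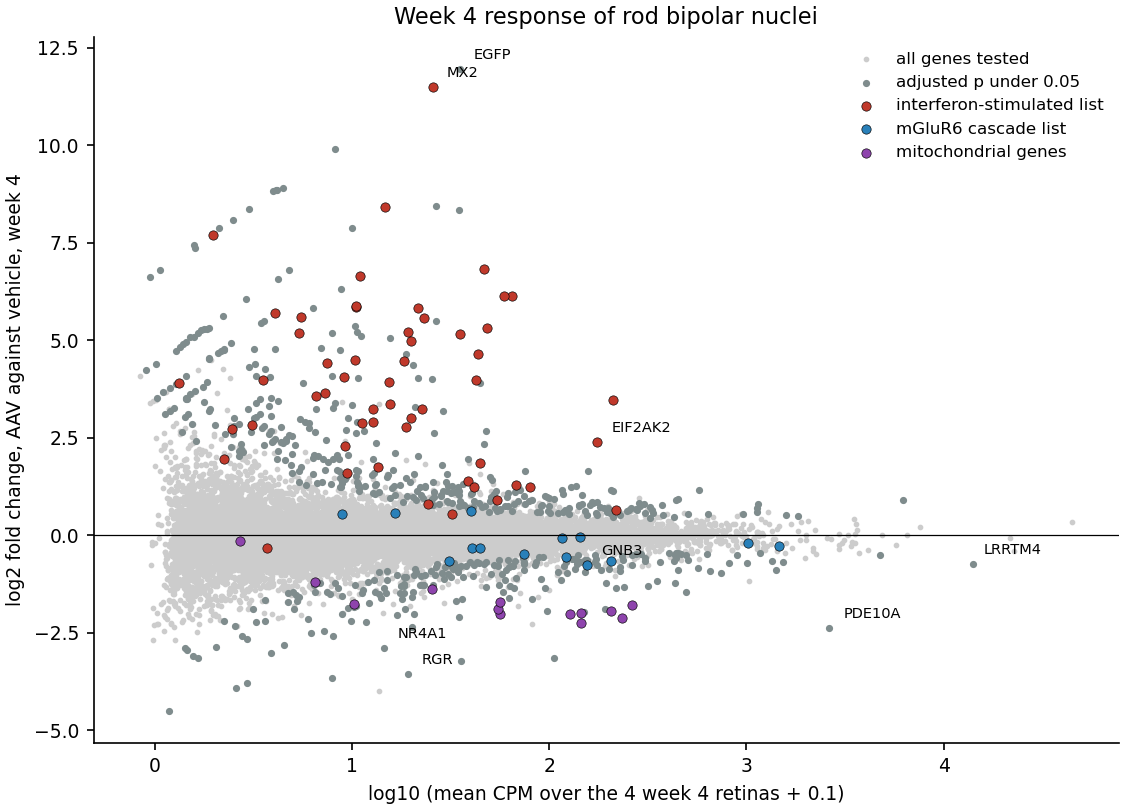
Log2 fold change of each gene in rod bipolar nuclei, AAV against vehicle at week 4 (2 animals each), over the log10 of its mean CPM. Light grey points are all genes tested and dark grey points those that passed the threshold. Coloured points are the interferon-stimulated list (red), the mGluR6 cascade without the genes of the rule (blue) and the mitochondrial genes (purple). Of the 54 red points 53 lie above 0 and 48 pass, 11 of the 14 blue points lie below 0, and PDE10A stands apart among highly expressed genes.

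The largest change was a rise of interferon-stimulated genes. Of 54 genes of this list that could be tested, 48 rose and none fell (background 2.49%), with a median of 3.78. Groups did not overlap, AAV higher, for 53 of the 54, against 27.6% of all genes. MX2, which encodes an antiviral GTPase (chr13:204798633-204821612), had 35.8 and 75.3 CPM in the AAV animal and 0.0962 and 0 CPM in the vehicle animal at week 2. At week 4 it had 55.8 and 46.6 CPM in the AAV retinas and 0 UMIs in both vehicle retinas. Set against a floor of 3 UMIs over the group it was at least 255-fold higher. Among genes with a symbol, a mean of at least 10 CPM and groups that did not overlap, EGFP and MX2 had the largest fitted increases, followed by DDX60, IFI44, RSAD2, IFI44L, IFI6, LGALS3BP, ISG15 and IFIH1.

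RSAD2, which encodes the enzyme viperin, had 16.9 and 26.4 CPM against 0.123 and 0.283 CPM. Its vehicle value rests on 3 UMIs, and the ratio was 113.3 with a counting interval of 38.4 to 552. IFI6 rose from 1.23 and 2.12 CPM to 86.2 and 147 CPM (6.12 ± 0.39, adjusted p = 0.000772). The ubiquitin-like modifier ISG15 had 19.9 and 20.8 CPM against 0.247 and 0.424 CPM (5.86 ± 0.34, adjusted p = 0.00046). In every one of these genes both AAV retinas lay far above both vehicle retinas. EIF2AK2, the kinase PKR that halts translation in response to double-stranded RNA, rose by 2.40 ± 0.12 from an already substantial 53.7 and 57.1 CPM. The 6 tested members that did not pass were GBP5, GBP2, TDRD7, TRIM26, OASL and ISG20, with changes of -0.33, 0.55, 0.64, 0.80, 1.95 and 3.91. Without vehicle animal 7250 the number that rose was 31, and without 7251 it was 17.

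The promoters of genes on this list are known to carry the interferon-stimulated response element, in which GAAA repeats at short spacing are contacted by interferon-activated factors. Windows from 250 bases before to 50 bases after each gene's start were read from the RefSeq annotation of Sscrofa11.1, the build of the files. They were searched on both strands for a pair of GAAA tetramers with any 2 bases between them, overlapping matches included. Such a pair was found in 320 of 10951 tested genes with a window (2.92%), in 36 of 315 genes that were higher (11.4%) and in 6 of 133 that were lower (4.51%). It was found in 18 of the 45 risen genes of the interferon-stimulated list (40%) and in 18 of 270 other risen genes (6.67%). Stretches of 5 raised genes, chosen after their values were seen, are shown as examples of how such pairs read. The pair nearest the start begins 188 bases before it in BST2, 130 in RSAD2, 108 in ISG15, 38 in DTX3L and 36 in IFIT3. Each stretch of 80 bases lies upstream of the start, 5′ to 3′ on the strand of the gene, with the matches in capitals (on the opposite strand the pair reads as TTTC). A match is a description of the letters and not a binding site.
BST2 (chr2:60305083-60305162, plus strand): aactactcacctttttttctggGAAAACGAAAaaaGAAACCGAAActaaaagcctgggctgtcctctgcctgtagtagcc
RSAD2 (chr3:128897895-128897974, minus strand): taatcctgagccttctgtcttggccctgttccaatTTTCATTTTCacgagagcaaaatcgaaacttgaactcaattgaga
ISG15 (chr6:63363058-63363137, plus strand): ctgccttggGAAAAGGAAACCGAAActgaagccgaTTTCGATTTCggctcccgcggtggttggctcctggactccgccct
DTX3L (chr13:137961382-137961461, minus strand): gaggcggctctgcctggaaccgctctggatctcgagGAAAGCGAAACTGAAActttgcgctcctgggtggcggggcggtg
IFIT3 (chr14:101214650-101214729, plus strand): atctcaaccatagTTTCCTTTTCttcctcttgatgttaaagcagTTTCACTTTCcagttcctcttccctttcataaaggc

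Of these 5 genes, BST2 encodes tetherin, which holds budding virions at the cell surface. It was at 0 UMIs in all 4 vehicle retinas and at 4.55, 9.19, 5.16 and 2.32 CPM in the AAV retinas. DTX3L, a ubiquitin ligase, had 15.1 and 24.2 CPM at week 4 against 1.36 and 0.283 CPM (4.50 ± 0.51, adjusted p = 0.00744). IFIT3, which binds viral RNA together with its relatives, had 4.98 and 7.97 CPM against 0.494 and 0.283 CPM (3.98 ± 0.50, adjusted p = 0.0105).

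UMIs of the list were found in most rod bipolar nuclei of the AAV retinas. The list as a whole took 2893 and 3963 CPM in the AAV animal and 585 and 572 CPM in the vehicle animal at week 2, and 2755 and 3054 CPM against 582 and 551 CPM at week 4. After thinning to 2000 UMIs, 84.7% and 87.5% of nuclei had at least 2 UMIs of the list in the AAV animal of week 2, and 31.0% and 29.98% in the vehicle animal. At week 4 the shares were 80.7% and 86.8% against 33.3% and 28.9%, or 83.8% ± 4.26 against 31.1% ± 3.07 (SD, n = 2; exact two-sided permutation p = 0.333, the smallest possible). RNA of other cells was also present in the members: 8 genes of T cells stood at 30.2 and 23.8 CPM in members of the week 4 AAV retinas and 95.7 and 85.3 CPM in all other barcodes, against 11.5 and 11.3 CPM and 16.8 and 16.4 CPM in the vehicle retinas. The list itself was higher in all other barcodes than in members, and the part of free RNA in these shares was not tested. Mean UMIs of the list in EGFP-positive and EGFP-negative members were 4.84 and 5.27 in animal 7248 and 6.12 and 5.90 in 7249. Among EGFP-negative members alone, 47 of 53 genes rose.

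**Figure D3:**
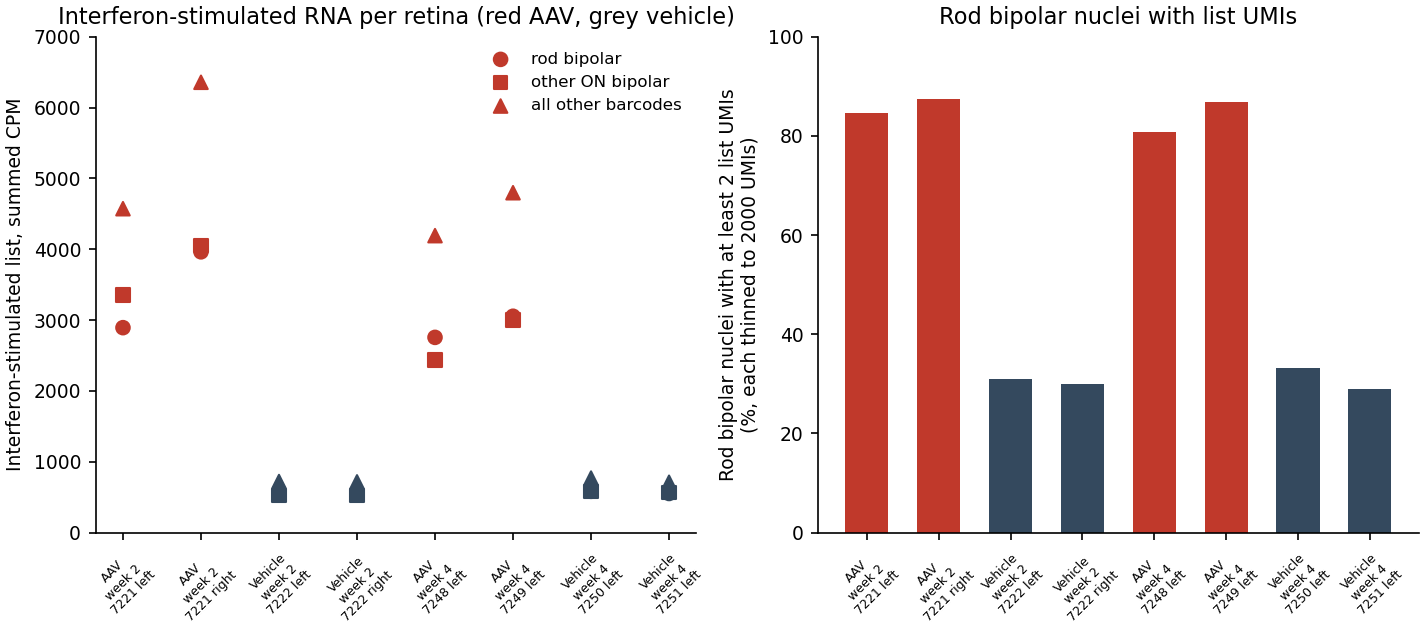
Left, summed CPM of the interferon-stimulated list per retina in rod bipolar nuclei (circles), other ON bipolar nuclei (squares) and all other barcodes (triangles). Right, percentage of rod bipolar nuclei with at least 2 UMIs of the list after thinning to 2000 UMIs. Each point or bar is 1 retina. All 4 AAV retinas lie above all 4 vehicle retinas in each population, and in rod bipolar nuclei they reach 80.7% to 87.5% against 28.9% to 33.3%.

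The neighbouring nuclei held the response too. In other ON bipolar nuclei 588 of 16786 genes passed at week 4 (3.5%; 1.74% higher and 1.76% lower), and 48 of 53 interferon-stimulated genes rose. Other ON bipolar nuclei held 2434 and 3002 CPM of the list in the week 4 AAV retinas against 576 and 564 CPM, and all other barcodes 4192 and 4798 CPM against 769 and 710 CPM. In the test of the difference between rod bipolar and other ON bipolar nuclei, 1 of 54 list genes passed (background 2.35%). This was TDRD7, a component of RNA granules, whose response was higher in rod bipolar nuclei by 0.63 (adjusted p = 0.044).

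Transcripts of most genes for presentation of antigen on MHC class I rose too. Of 15 tested genes 10 were higher and none lower (background 2.49% and 1.35%), with a median of 2.36. B2M, the light chain of every class I molecule, had 56.4 and 47.3 CPM in the week 4 AAV retinas and 0.988 and 1.27 CPM in the vehicle retinas (5.49 ± 0.23, adjusted p = 0.000268). TAP1, the transporter that loads peptides, had 45.7 and 35.5 CPM against 2.47 and 2.40 CPM (4.03 ± 0.22, adjusted p = 0.000439). NLRC5, the transcriptional activator of class I genes, had 100 and 87.5 CPM against 1.36 and 3.39 CPM (5.31 ± 0.30, adjusted p = 0.000459). The chaperones CANX, CALR and PDIA3 had changes of -0.23, 0.16 and -0.15 and did not pass.

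Of 12 sensors of viral nucleic acid and their partners tested, 6 were higher and none lower (background 2.49% and 1.35%): the RNA sensors RIGI, IFIH1 and DHX58, the DNA and Z-RNA sensors CGAS and ZBP1, and UNC93B1, which carries Toll-like receptors to endosomes. CGAS had 4.09 and 5.02 CPM against 0.247 and 0 CPM. The adaptors MAVS and TRAF3 and the kinase TBK1 had changes of -0.10, 0.17 and -0.28. Among interferon receptors and JAK-STAT members 7 of 24 were higher (background 2.49%). They included STAT3 (107 and 92.2 CPM against 49.8 and 47.7 CPM; 1.01 ± 0.12, adjusted p = 0.00847) and the receptor chain IL10RB (1.47 ± 0.29, adjusted p = 0.0432). The kinases JAK1, JAK2 and TYK2 lay between -0.18 and 0.00.

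Lists of inflammation and damage, with 13 to 24 genes tested in each, gave 0 to 3 calls in each direction. Over all genes 2.49% were higher and 1.35% lower. Lists with a call lay above that share in its direction, on 1 to 3 genes. Of 20 NF-kB members and targets 3 rose, namely CSF1, CCL2 and CXCL10, all chemokines or growth factors of myeloid cells and T cells. CXCL10 had 1.96 and 3.99 CPM against 0 UMIs. NFKB1, RELA and NFKBIA had changes of 0.45, -0.28 and 0.45 and did not pass. Of 13 complement genes SERPING1, an inhibitor of the classical pathway, rose (37.9 and 31.9 CPM against 7.53 and 9.18 CPM; 2.04 ± 0.19, adjusted p = 0.00341) as did C1S, and the receptor C5AR1 fell. In the p53 list 2 of 21 rose (CDKN1A and FAS) and TIGAR fell (-1.27 ± 0.16, adjusted p = 0.00955). RAD50 rose by 0.66 ± 0.10 and the kinase ATR fell by 0.58, out of 21 genes of DNA damage sensing and repair. Of 16 cell death genes 3 rose, CFLAR and FAS among them. JUN, KLF6 and CEBPD rose and NR4A1 fell among 20 genes of neuronal injury. None of 24 tested genes of AAV entry and trafficking passed.

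The machinery of the light response gave a single call. Of the 14 genes of the mGluR6 cascade outside the rule, 1 fell and none rose (background for genes lower 1.35%). This was GNB3, the beta subunit of Go in ON bipolar cells, with 177 and 224 CPM in the AAV animal and 143 and 171 CPM in the vehicle animal at week 2. At week 4 it had 117 and 116 CPM against 198 and 192 CPM (-0.76 ± 0.10, adjusted p = 0.0109). The week 4 groups did not overlap. The change was -0.75 without vehicle animal 7250 and -0.78 without 7251. With at least 10 marker UMIs the change was -0.57 (adjusted p = 0.0306).

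The other members of the cascade did not pass. GPR179, which anchors the regulator complex at the dendritic tip, had 156 and 163 CPM against 205 and 295 CPM (-0.66 ± 0.17, adjusted p = 0.0935). RGS9BP and GNG13, the gamma subunit, had changes of -0.65 and -0.55, and NYX, the protein nyctalopin that places TRPM1, -0.47. The regulators RGS7, RGS11, RGS7BP and GNB5 lay at -0.27, -0.33, -0.33 and -0.04. GNAO1, the alpha subunit of Go, had 906 and 993 CPM against 1088 and 1066 CPM (-0.20 ± 0.10, adjusted p = 0.33), and PCP2 -0.06. The leucine-rich LRIT1, LRIT2 and LRIT3 had changes of 0.62, 0.56 and 0.58. In all, 11 of the 14 were below 0 and 3 above, with a median of -0.30, and 9 lay lower without overlap of the groups, against 23.7% of all genes.

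Synaptic and channel lists, with 13 to 27 genes tested in each, gave from 0 to 3 calls. Over all genes 3.83% passed in either direction, and lists with a call lay above that share, on 1 to 3 genes. None of 27 genes of the ribbon synapse and release passed, with a median of -0.01, and none of 13 genes of protein kinase C and calcium signaling. The ribbon channel CACNA1F (-0.47, adjusted p = 0.0607) and CPLX3 (0.60, adjusted p = 0.0683) came closest. Of 20 genes of inhibitory receptors and chloride transport, the GABA-B receptor GABBR2 and the chloride importer SLC12A2 rose and LRRTM4 fell. SLC12A2 had 97.6 and 132 CPM against 39.1 and 33.2 CPM (1.65 ± 0.19, adjusted p = 0.00703). It rose in all other barcodes too, from 99.7 and 82.5 CPM to 193 and 251 CPM, but had 132 and 138 CPM against 139 and 165 CPM in other ON bipolar nuclei. KCND3, an A-type potassium channel, was 1 of 18 channels to pass (39.5 and 38.3 CPM against 68.4 and 83.9 CPM; -0.99 ± 0.14, adjusted p = 0.0175). The adhesion molecule CDH11 was 1 of 19 (0.98 ± 0.16, adjusted p = 0.0234). With at least 10 marker UMIs the changes of CDH11 and GABBR2 were 0.08 (adjusted p = 0.916) and 0.38 (adjusted p = 0.374). Without vehicle animal 7250 the changes were 1.77 for SLC12A2, -1.14 for KCND3 and 0.96 for CDH11. Without 7251 they were 1.54, -0.83 and 0.98 in the same order.

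Among 18 transcription factors of bipolar cells NFIB was the single call, against 2.49% of all genes higher. It had 210 and 155 CPM in the week 4 AAV retinas and 77.8 and 74.02 CPM in the vehicle retinas (1.24 ± 0.15, adjusted p = 0.008). The rise was 0.25 (adjusted p = 0.566) among members with at least 10 marker UMIs, and the adjusted p was 0.0817 without vehicle animal 7250 and 0.166 without 7251. Other ON bipolar nuclei held 228 to 252 CPM of NFIB at week 4, in AAV and vehicle retinas alike.

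Among transcripts with a mean of at least 1000 CPM at week 4 the steepest fall was that of PDE10A, a phosphodiesterase that breaks down cAMP and cGMP (chr1:3120418-3394236, plus strand). It was among their most abundant transcripts, with 5204 and 5856 CPM in the AAV animal and 4740 and 5036 CPM in the vehicle animal at week 2. At week 4 it stood at 798 and 931 CPM in the AAV retinas and 4231 and 4579 CPM in the vehicle retinas. The 2 AAV retinas of week 4 were several-fold below all 6 others, which lay close together. The change was -2.36 ± 0.12 (adjusted p = 0.00037), a 5.15-fold lower level. It remained past the threshold without each retina in turn (adjusted p of 0.0437 or less without a vehicle retina) and in 15 of 16 alternatives, in which it lay between -2.51 and -2.23. The exception was a fit of the 6 animals with 1 common effect of treatment and a term for week (-1.57, adjusted p = 0.398), which averages over the week 2 animal.

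The AAV effect on PDE10A at week 4 was lower than that at week 2 by 2.52 on the log2 scale (edgeR interaction). The week 2 effect in this fit is that of 1 animal per arm. Its spread came from the week 4 animals alone, so variation between animals at week 2 is not in it. In other ON bipolar nuclei PDE10A had 1652, 1495, 1572 and 1522 CPM at week 2 and 1114 and 776 CPM against 2045 and 1619 CPM at week 4 (-0.92, adjusted p = 0.0232). The fall in rod bipolar nuclei exceeded that in other ON bipolar nuclei by 1.44 (adjusted p = 0.0127). All other barcodes went from 1576 and 2055 CPM to 471 and 308 CPM, so lower PDE10A at week 4 was not limited to rod bipolar nuclei.

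In single nuclei, many members of the week 4 AAV retinas had no PDE10A UMI. After thinning to 2000 UMIs the median was 10, 11, 9 and 10 UMIs at week 2, 0 and 0 in the week 4 AAV retinas and 8 and 9 in the vehicle retinas. The share of members with 0 UMIs was 50.3% and 54.9% in the week 4 AAV retinas, against 3.44% to 5.41% in the other 6. The same was seen away from the edge of the rule. Among members with at least 8 UMIs of LRRTM4 after thinning (862 and 1163 nuclei of the AAV retinas), 48.1% and 46.0% had no PDE10A, against 0.254% to 0.872% in the other 6 retinas. In that same subset CADPS2 had a mean of 3.00 and 2.22 UMIs in the AAV retinas and 2.66 and 1.74 in the vehicle retinas. EGFP was found in 17.5% and 18.9% of members without PDE10A and in 14.2% and 18.6% of members with at least 4 UMIs of it.

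**Figure D4:**
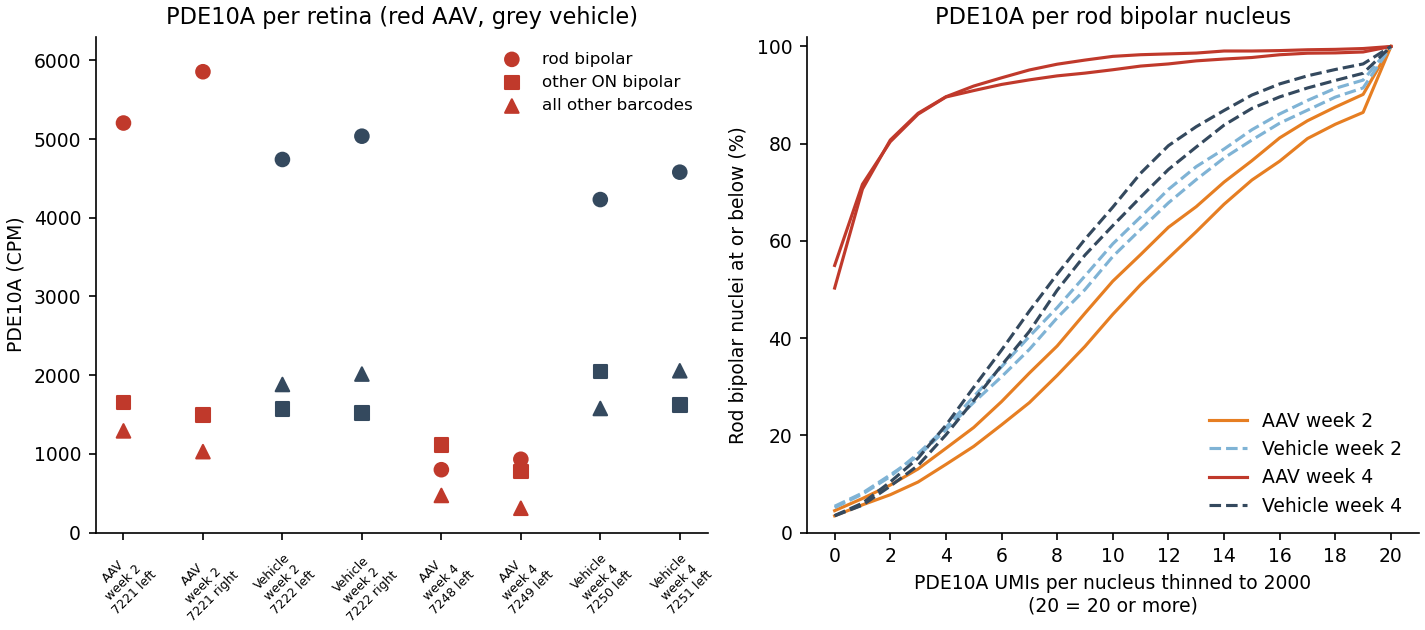
Left, CPM of PDE10A per retina in rod bipolar nuclei (circles), other ON bipolar nuclei (squares) and all other barcodes (triangles), red for AAV and dark grey for vehicle. Right, cumulative percentage of rod bipolar nuclei by PDE10A UMIs after thinning to 2000 UMIs, 1 line per retina (solid for AAV, orange at week 2 and red at week 4; dashed for vehicle). The 2 lines of the week 4 AAV retinas start at 50.3% and 54.9% with no UMI, and the other 6 start at 3.44% to 5.41%.

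Other genes of rod bipolar identity fell too, by less. Of 50 genes chosen as the highest in rod bipolar over other ON bipolar nuclei in the week 2 vehicle animal, which took no part in the week 4 test, 12 fell and none rose (background for genes lower 1.35%), with a median of -0.30. GINS2, C16orf74 and LRRTM4, among the 12, were also among the 10 genes with the largest ratio over all 4 vehicle retinas, a choice to which the week 4 vehicle retinas contributed. C16orf74 had 240 and 286 CPM against 699 and 740 CPM (-1.46 ± 0.12, adjusted p = 0.00226), and GINS2, a subunit of the replicative helicase complex, 31.5 and 49.4 CPM against 159 and 151 CPM (-1.94 ± 0.21, adjusted p = 0.00656). LRRTM4 had 10493 and 11000 CPM against 17334 and 17791 CPM (-0.73 ± 0.10, adjusted p = 0.0133). In each the week 4 AAV retinas lay below all 6 others.

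The remaining ones included NTRK2, the receptor of the growth factor BDNF (186 and 249 CPM against 422 and 552 CPM; -1.17 ± 0.19, adjusted p = 0.0244), the adenylyl cyclase ADCY1 (-0.81) and protein kinase D3, PRKD3 (-0.91). CEP112, CLMP, ACOT11, MBL1, RASGRF1 and ZNF423 fell as well. CADPS2 (-0.05), VSNL1 (-0.04) and TMEM196 (0.00), which mark the same cells, did not pass, and KCNH5, a potassium channel, had 2104 and 2120 CPM against 1643 and 1667 CPM (0.33, adjusted p = 0.0952). The number that fell was 8 with at least 10 marker UMIs, 2 without vehicle animal 7250 and 0 without 7251. With at least 10 marker UMIs LRRTM4 had a change of -0.45 (adjusted p = 0.0432). Among all members its change was -0.755 without vehicle animal 7250 and -0.706 without 7251. Of 50 genes highest in other ON bipolar nuclei 4 rose and none fell in rod bipolar nuclei, against 2.49% of all genes higher. Among them was DUOX2, a hydrogen peroxide-forming oxidase (23.6 and 21.5 CPM against 7.78 and 7.35 CPM; 1.55 ± 0.19, adjusted p = 0.00941).

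**Figure D5:**
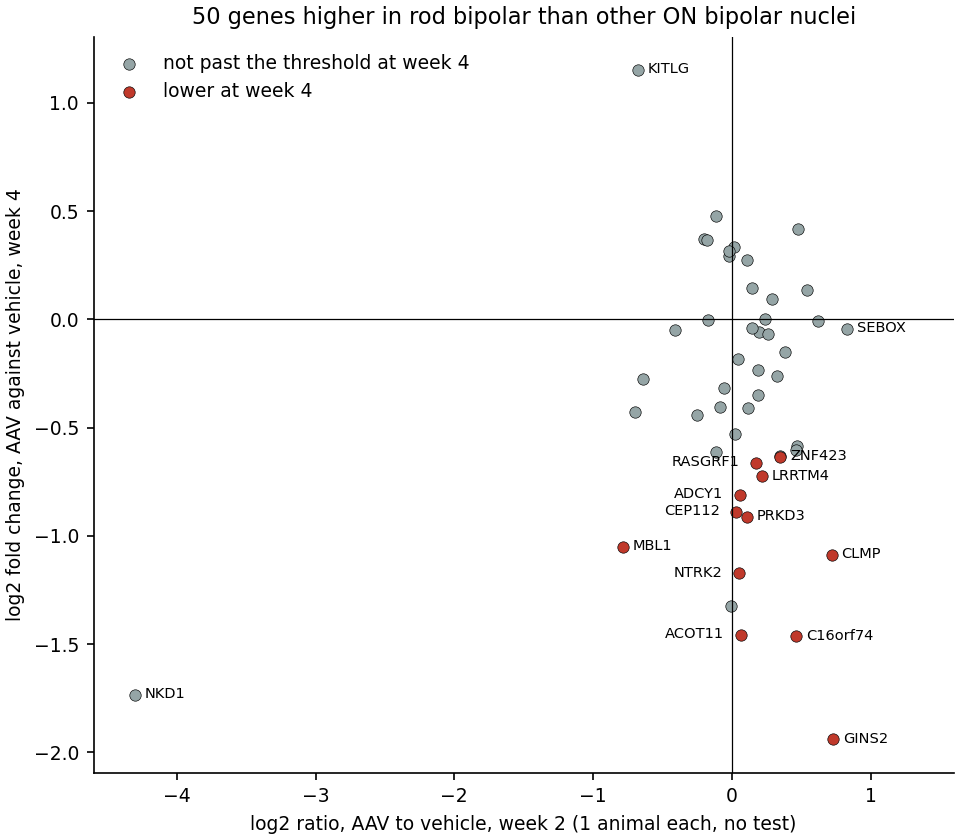
Each point is 1 of the 50 genes highest in rod bipolar over other ON bipolar nuclei. The horizontal axis gives its log2 ratio of AAV to vehicle at week 2 and the vertical axis its log2 fold change at week 4. The 12 genes in red fell at week 4, and all of them except MBL1 lie to the right of 0 on the week 2 axis.

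Some of the falls outside these lists were of genes known from other cells. RGR and RLBP1, both of the retinoid cycle in Müller glia and pigment epithelium, fell by 3.56 and 1.64 on the log2 scale. Of 11 genes tested from a list of Müller glia and astrocytes 2 fell, KCNJ10 and RLBP1, and none rose (background for genes lower 1.35%), 4 lay above 0, the median was -0.32, and the summed level of the 13 genes of the list in the data overlapped between the groups (127 to 326 CPM in the AAV retinas and 255 to 296 CPM in the vehicle retinas at week 4). In all other barcodes RGR went from 78.8 and 89.0 CPM to 5.91 and 2.87 CPM and TF, transferrin, from 190 and 185 CPM to 43.1 and 10.1 CPM, so both fell there as well. In rod bipolar nuclei TF had 12.8 and 1.93 CPM against 62.2 and 65.4 CPM (-3.23 ± 0.58, adjusted p = 0.0335), and without a vehicle retina it did not pass (adjusted p = 0.171 and 0.28). Among genes with a symbol, groups that did not overlap and a mean of at least 10 CPM, ABCA8 and VIPR2 completed the 10 largest falls together with NR4A1, PDE10A and mitochondrial genes. MYOM1, a protein of the sarcomere, was chosen after its values were seen: it had 59.0 and 64.1 CPM against 260 and 219 CPM (-1.98 ± 0.13, adjusted p = 0.000816) in rod bipolar nuclei and 34.1 and 25.6 CPM against 43.2 and 51.3 CPM in other ON bipolar nuclei.

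Mitochondrial transcripts were lower across the tissue. Of 13 mitochondrially encoded genes 11 fell in rod bipolar nuclei (background 1.35%), with a median of -1.88, and together they took 640.5 and 470.01 CPM in the week 4 AAV retinas against 1878 and 2332 CPM in the vehicle retinas. The number that fell was 1 without vehicle animal 7251, 8 without 7250, 6 among members with at most 0.5% mitochondrial UMIs and 2 with week as a term. At week 2 they had 1096 and 1191 CPM against 1100 and 1344 CPM. All other barcodes had 1687 and 1270 CPM against 7642 and 4745 CPM at week 4. Mitochondrial RNA in a preparation of nuclei measures carry-over of cytoplasm as well as the cell, and its part in the results above was not tested. The glycolytic enzymes GPI and GAPDH, encoded in the nucleus, fell by 0.78 and 0.80 on the log2 scale out of 23 genes of energy metabolism.

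Of 10 lymphocyte genes tested in the members 3 rose (background 2.49%), IGHM, CD2 and IL7R. Of the other 7, LCK (-1.65) and CD247 (-0.41) lay lower without overlap and did not pass. IGHM, the heavy chain of immunoglobulin M, rose to 11.6 and 22.6 CPM from 0.123 and 0.283 CPM in rod bipolar nuclei and to 21.4 and 45.7 CPM in all other barcodes. CD2, of T cells, had 5.69 and 5.92 CPM in rod bipolar nuclei, 15.9 and 17.4 CPM in all other barcodes and 0 UMIs in the members of the week 4 vehicle retinas. ARHGAP15, chosen after its values were seen, had 51.2 and 37.9 CPM in rod bipolar nuclei and 196 and 160 CPM in all other barcodes, against 8.02 and 6.07 CPM and 14.7 and 14.9 CPM. The part of free RNA in these 3 genes was not tested.

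At week 2, with 1 animal per arm and no test, the interferon-stimulated genes were already high. Of 54 of them 51 were past 2-fold higher, as were 10 of 15 class I genes and 6 of 13 sensors. Over all 17661 genes, 512 (2.9%) were past 2-fold higher and 386 (2.19%) past 2-fold lower. IFI6 had 131 and 110 CPM in the AAV animal against 0.481 and 0.276 CPM and MX1 106 and 176 CPM against 4.52 and 4.04 CPM. Of the 50 rod bipolar genes none was past 2-fold higher and 1 past 2-fold lower, NKD1, an inhibitor of Wnt signaling, with 3.44 and 2.19 CPM against 46.6 and 61.1 CPM. NKD1 had 18.0 and 71.9 CPM in the week 4 vehicle animals, so animals without the vector also differed in it. The 50 genes were chosen for being high in this same week 2 vehicle animal, which favours lower values in the AAV animal.

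The difference of the AAV effect between weeks was tested over the 6 animals, and 10 of 18388 genes passed (0.0544%; 2553 had an unadjusted p under 0.05). The effect was lower at week 4 for NR4A1, ENSSSCG00000039704, PDE10A, CPNE4, SMPD3, MYOM1 and C16orf74 and higher for ADGRV1, FLVCR1 and SAMD7. CPNE4, a calcium-dependent membrane-binding protein, had 247 and 271 CPM in the week 2 AAV animal against 36.0 and 22.7 CPM, and 30.8 and 29.97 CPM against 20.1 and 16.7 CPM at week 4. SMPD3, a sphingomyelinase, was higher in the AAV animal at week 2 (203 and 230 CPM against 93.2 and 109 CPM) and lower at week 4 (54.2 and 54.2 CPM against 148 and 123 CPM). Of all genes tested 3 (0.0163%) were higher and 7 (0.0381%) lower. No interferon-stimulated gene was among the 10. In simulated counts this comparison recovered 2% of 2-fold and 45% of 4-fold changes. A gene outside the 10 is therefore not shown to have had the same effect in both weeks. The week 2 part of this test rests on 1 animal per arm. The spread of the fit came from the week 4 animals alone, so the 10 calls cannot be told apart from variation between animals at week 2. No gene passed when vehicle animal 7250 was left out, 1149 passed without AAV animal 7248, 757 without 7249 and 6 without vehicle animal 7251.

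Rod bipolar and other ON bipolar nuclei differed in their week 4 response for 420 of 17869 genes (2.35%), with 267 (1.49%) higher and 153 (0.856%) lower in rod bipolar nuclei. The largest were DCDC2, PAX2, CCDC88C, ENSSSCG00000052241 and CNKSR3. PAX2 is on the list of Müller glia and astrocytes. Of 12 genes of that list 4 were higher and none lower in this test (background 1.49% and 0.856%). In other ON bipolar nuclei 4 of 10 fell and none rose (background for genes lower 1.76%). The part of RNA from glia in these differences was not tested. DCDC2, a microtubule-binding protein of cilia, rose in rod bipolar nuclei to 43.2 and 16.9 CPM from 0.741 and 0.989 CPM, and at week 2 it had 28.8 and 33.0 CPM against 2.60 and 1.01 CPM. In other ON bipolar nuclei it had 6.43 and 1.96 CPM against 2.61 and 1.08 CPM. NR4A1, an immediate early gene of the nuclear receptor family, fell in rod bipolar nuclei (3.91 and 3.09 CPM against 22.7 and 28.0 CPM) and had 13.0 and 8.49 CPM against 5.78 and 14.1 CPM in other ON bipolar nuclei, a difference of -3.05 (adjusted p = 0.0055). NTRK2, CEP112 and PRKD3 fell more in rod bipolar than in other ON bipolar nuclei (by 1.17, 0.75 and 0.82). Of the 17 rod genes 10 were among the 267: the rod list had 4380 and 4685 CPM against 4512 and 4318 CPM in rod bipolar nuclei, and 2674 and 2047 CPM against 4132 and 4180 CPM in other ON bipolar nuclei. Under a stricter rule 77 were higher and 138 lower, so that the balance of directions turned. Without vehicle animal 7250 the number that differed was 42, and without 7251 it was 72.

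Within AAV retinas, EGFP-positive and EGFP-negative rod bipolar nuclei differed for 499 of 15126 genes (3.3%; edgeR on counts summed per animal, with the animal as a term), 109 (0.721%) higher and 390 (2.58%) lower in EGFP-positive nuclei. Without animal 7221 these were 12 and 165. Of the rod list 16 of 17 genes were lower in EGFP-positive nuclei and of the 50 rod bipolar genes 15 were higher. The eyes of 7221 were summed. EGFP was found in 19.8% of members of its left and 41.2% of its right retina. Their rod lists stood at 4268 and 2206 CPM. Median UMIs by retina, in the order above, were 3710, 5226.5, 4557.5 and 4987.5 in EGFP-positive members. In EGFP-negative members they were 3375, 4347, 3696 and 4295. After thinning to 2000 UMIs 421 genes passed. The part of the difference between eyes was not tested. The interferon-stimulated list had 3 higher and 1 lower with a median of 0.16, and PDE10A did not differ past the threshold (-0.12, adjusted p = 0.63).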

How the data were processed

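Single nuclei of 8 pig retinas were sequenced (10x Genomics 3′ chemistry, 4 lanes per retina). The deposited values are raw UMI counts per gene and barcode, made by the authors with Cell Ranger 8.0.0 on Sscrofa11.1 with EGFP added. Barcodes were taken as deposited. Members, gene lists and alternatives were chosen with earlier results of these data known. No doublet caller was run; the rule left out nuclei with more than 1 UMI over 5 genes of other classes, none of them a rod, Müller or ganglion cell gene, and the deepest 5% of members were left out as an alternative. Counts were summed per retina (week 4) or animal and fitted in edgeR 4.0.16 (TMM, filterByExpr, quasi-likelihood test, Benjamini-Hochberg adjustment) under R 4.3.3. DESeq2 1.42.0 was an alternative. The AAV effect at week 2 had no test of its own. The difference between weeks used 6 animals, that between classes the 4 week 4 retinas with retina as a term. Each group was 1 batch in the labels. Single values were compared by exact permutation. Intervals are exact Clopper-Pearson at 95%, and floors 3 counts; both cover counting error only. Thinning drew 2000 UMIs from each nucleus and left out shallower ones. Of 35683 genes, 18049 had no symbol. In simulated week 4 counts over 15958 genes, 36% of 2-fold and 85% of 4-fold changes were recovered and 10.4% of calls were false. For the difference between weeks these values were 2%, 45% and 13.0%, and for that between classes 39%, 72% and 8.26%. Some genes of the lists are not reported here.

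Genes were named by rule: up to 4 per list past the threshold with the largest change and all of the mGluR6 cascade; the 10 largest increases and decreases past the threshold, not overlapping, with a symbol and at least 10 CPM; the 10 largest and smallest ratios to other ON bipolar nuclei in vehicle retinas at 20 CPM or more; and the 5 largest changes in each test of a difference. Others that did not pass are named for their role in a list, after their values were seen. The part of the rule that takes identity genes used the vehicle retinas alone.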

Additional observations from a re-analysis of the deposited data

Results flagged for a closer look

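The AAV effect differed between weeks for 10 genes in rod bipolar nuclei by the edgeR interaction test. The differences, week 4 minus week 2, were -3.06 for NR4A1, -2.85 for ENSSSCG00000039704, -2.52 for PDE10A, -2.43 for CPNE4 and -2.43 for SMPD3 on the log2 scale. The week 2 effect rests on 1 animal per arm, and the spread of the fit came from the week 4 animals alone. The genes that stood out changed with left eyes only and without single animals.

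The week 4 effect differed between rod bipolar and other ON bipolar nuclei for 420 genes by the corresponding test. The differences, rod bipolar minus other ON bipolar, were 3.90 for DCDC2, 3.75 for PAX2, 3.47 for CCDC88C, -3.44 for ENSSSCG00000052241 and 3.23 for CNKSR3 on the log2 scale. PAX2 is on the list of Müller glia and astrocytes.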

How the results depend on the processing

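No paired analysis was possible because the numbers in the labels are lanes of 1 retina and the groups hold different animals. That applies to AAV against vehicle. The test by EGFP had the animal as a term, and the test between classes had the retina. Of 3158 values of 201 named genes under the alternatives, 2675 stayed on their side of the threshold (81 of them, of genes that had not passed, with the other sign), 430 lost the call, 48 gained it and 5 reversed. With at most 1 rod-list UMI per nucleus ADGRV1 turned to -0.11, IMPG2 to -0.60 and SAMD7 to -0.46; at a marker sum of at least 10, added after seeing the data, LRRC7 turned to -0.13 and ZNF804B to -0.36. The 640 calls at week 4 became 426 with at least 3000 UMIs, 276 with at most 1 rod-list UMI, 2085 with no filter on low counts and 131 with week as a term, and ranged from 38 to 1520 without single retinas. The split of 415 higher and 225 lower became 280 and 246 at a marker sum of at least 10. The 11 mitochondrial genes that fell became 6 with at most 0.5% mitochondrial UMIs and 2 with week as a term, and ranged from 1 to 12 without single retinas. The 10 calls between weeks became 1 with left eyes only and ranged from 0 to 1149. The 420 calls between classes became 215 under the stricter rule (77 higher and 138 lower, from 267 and 153) and ranged from 42 to 637. The 499 calls by EGFP became 177 without animal 7221 and 835 without 7248. The 898 genes past 2-fold at week 2 became 1422 with right eyes only. The EGFP share at week 4, 19.2%, was 6.57% for at least 2 UMIs and 6.38% after thinning to 1000 UMIs. The cause was not tested for any of these.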
